A study of Mus musculus with 3 samples.

Results

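The 9 genes described here, S100a8, S100a9, Retnlg, Trem1, Csf3r, Clec4d, Clec4e, G0s2 and Slpi, are granule, alarm and receptor genes of neutrophils. They were taken by gene symbol from the 32285 genes counted in the series, and all 9 were found, each on 1 row. Their transcripts were counted on Visium slides, on which a tissue section lies over a grid of barcoded spots and each captured RNA molecule is counted once by its unique molecular identifier (UMI). The series has 1 slide with a section of a full-thickness wound in the back skin of a wild-type C57BL/6J mouse for each of Day 3, Day 7 and Day 14 after wounding. The labels name no other genotype or treatment, and uninjured skin was not analysed here as a group of its own. A single section stood for each day, which leaves no measure of how animals vary, so no test was made. All intervals are exact 95% intervals that cover counting error only, and spots of 1 section were not treated as replicates.

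Neutrophils are short-lived white cells that leave the blood at a fresh wound, kill microbes and release stored granule proteins. They are made in the bone marrow, where immature cells fill their granules in a fixed order, with primary granule proteins such as myeloperoxidase first and secondary granule proteins such as lactoferrin later. S100a8 and S100a9 encode the subunits of calprotectin, a metal-binding alarm protein that is abundant in neutrophils and is also made by stressed keratinocytes. Retnlg encodes a resistin-like secreted protein of mouse neutrophils, and Slpi a secreted inhibitor of neutrophil elastase that epithelia also make. Csf3r is the receptor for G-CSF, the growth factor of neutrophils. Trem1 amplifies inflammatory signals, and Clec4d and Clec4e are lectin receptors that sense damage and microbial lipids. G0s2 encodes an inhibitor of the fat-cell lipase ATGL and is abundant in fat as well as in neutrophils.

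In the RefSeq annotation of GRCm38.p6, S100a8 lies on chromosome 3 from 90669071 to 90670034 on the plus strand. S100a9 lies on the minus strand from 90692630 to 90695721, leaving a gap of 22595 bases between these protein-coding neighbours. Clec4d and Clec4e are neighbours on chromosome 6 with a gap of 6520 bases. RefSeq held a promoter sequence for 9 of the 9 genes. A binding motif of the C/EBP family, transcription factors of the myeloid lineage, was searched as TTGCNNAA on either strand, which reads TTNNGCAA when reversed, and that of PU.1, another myeloid factor, as GAGGAA on either strand, which reads TTCCTC when reversed. The C/EBP letters were found in the 250 bases before the transcript start that RefSeq's promoter table uses in 4 of the 9 genes (S100a9, Retnlg, Clec4e and Slpi), against 9.56% of 32851 promoters, and the PU.1 letters in 5 of the 9 (S100a8, Trem1, Csf3r, Clec4d and Clec4e), against 23.3%. The windows of 4 genes follow, 5′ to 3′ with the base before that start last: those of S100a8 and S100a9, which had the largest number of shared spots on Day 3, and those of Slpi and G0s2, which also had places of their own. Capitals mark either motif, and the motifs did not overlap in any of the 9 windows. S100a8 is at chr3:90668821-90669070 (plus strand), S100a9 at chr3:90695722-90695971, Slpi at chr2:164356508-164356757 and G0s2 at chr1:193273189-193273438 (all minus strand).
S100a8: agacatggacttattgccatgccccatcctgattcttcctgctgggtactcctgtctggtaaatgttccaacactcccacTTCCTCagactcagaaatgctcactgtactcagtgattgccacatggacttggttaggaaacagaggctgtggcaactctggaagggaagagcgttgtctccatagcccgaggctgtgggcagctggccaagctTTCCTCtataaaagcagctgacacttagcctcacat
S100a9: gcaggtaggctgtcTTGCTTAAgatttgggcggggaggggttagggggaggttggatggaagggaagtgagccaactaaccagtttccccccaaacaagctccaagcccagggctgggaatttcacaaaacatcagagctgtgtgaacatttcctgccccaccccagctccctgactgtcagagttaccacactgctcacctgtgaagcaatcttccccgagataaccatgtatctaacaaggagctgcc
Slpi: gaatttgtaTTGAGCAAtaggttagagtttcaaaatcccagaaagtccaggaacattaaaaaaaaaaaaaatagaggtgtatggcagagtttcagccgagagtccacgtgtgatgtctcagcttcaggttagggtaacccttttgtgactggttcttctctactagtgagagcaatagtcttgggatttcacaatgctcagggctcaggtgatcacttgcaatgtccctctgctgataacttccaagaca
G0s2: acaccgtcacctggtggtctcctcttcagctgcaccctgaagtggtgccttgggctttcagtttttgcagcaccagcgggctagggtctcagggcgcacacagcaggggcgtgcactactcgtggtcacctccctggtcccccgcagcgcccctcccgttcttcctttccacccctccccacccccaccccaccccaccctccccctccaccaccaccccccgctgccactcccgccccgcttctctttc
The G0s2 window held neither motif. The Csf3r window (126024409 to 126024658) lies inside the annotated gene, which starts at 126023441, and the Trem1 window ends at 48232738, past the gene's start at 48232713. A match is a description of letters and not a measured binding site.

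Each slide has 4992 spots, and the submitters marked a part of the stained tissue as the area to be analysed, which took in 664, 549 and 697 spots in the order of the days. The marked spots held 1772259, 4442962 and 4611723 UMIs, and the spots outside them held 1703210, 6457066 and 4715272. Because tissue also lay outside the mark, outside spots were split by whether they lay beyond the skin-surface edge of the marked area or beyond its deep edge. On Day 3, the 10 genes of the differentiated-epidermis list summed to 13834 UMIs per 1000000 UMIs of all genes (CPM) on the surface side and 508 CPM on the deep side, whereas 10 muscle genes summed to 35772 and 109380 CPM. The surface side of Day 3 was shallow, with a median of 65 UMIs per spot over 2574 spots, against 1513 in marked spots. The same 4992 spot barcodes occur on every slide because they name positions of the slide layout.

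On Day 3 every one of the 9 genes was detected in the marked area, and S100a9 and S100a8 were the highest. In marked spots S100a9 stood at 858 CPM (816-902, 1521 UMIs), 17.6 CPM (13.9-21.9, 78 UMIs) and 15.8 CPM (12.4-19.9, 73 UMIs) in the order of the days. S100a8 stood at 622 CPM (586-660), 13.3 CPM (10.1-17.1) and 17.1 CPM (13.6-21.4). Both calprotectin subunits were thus high on Day 3 alone, with intervals on Day 7 and Day 14 that overlapped each other. A gene is called different below where the ratio of CPM is at least 2-fold and its interval excludes no change. From Day 3 to Day 7, 8 of the 9 genes were called lower in marked spots, against 7.46% of 12541 genes called lower, and no member was called higher, against 8.40%. S100a9 was 48.9-fold lower (38.9-62.2) and S100a8 46.9-fold lower (36.1-62.0). In bulk counts over spots, fewer cells of a type and less RNA per cell cannot be told apart.

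The receptors went the same way, and 1 of them was lost from the counts. In marked spots Trem1 had 140 UMIs (79.0 CPM) on Day 3 and 0 on both later days, and set against a floor of 3 UMIs it was at least 117-fold lower on Day 7. Clec4d went from 207 CPM (366 UMIs) to 12.4 CPM (55 UMIs) and 2.82 CPM (13 UMIs). This lectin receptor was 16.7-fold lower (12.5-22.6) on Day 7 than on Day 3. Its neighbour Clec4e went from 43.4 CPM (77 UMIs) to 1.80 CPM (8 UMIs) and 2.60 CPM (12 UMIs), 24.1-fold lower (11.7-57.9) on Day 7. Csf3r, the G-CSF receptor, went from 51.9 CPM (92 UMIs) to 6.08 CPM (27 UMIs) and 5.85 CPM (27 UMIs), 8.54-fold lower (5.51-13.7). Among the 8 genes called lower on Day 7, the fold of Csf3r was the smallest.

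The secreted members split on the later days. Retnlg in marked spots had 63 UMIs (35.5 CPM), 0 and 9 (1.95 CPM) in turn, so that it was at least 52.6-fold lower on Day 7 against the floor. Slpi, the elastase inhibitor, went from 198 CPM (178-220, 351 UMIs) to 12.4 CPM (9.33-16.1, 55 UMIs) and 2.17 CPM (1.04-3.99, 10 UMIs). G0s2 was the exception on Day 7, at 133 CPM (116-151), 85.1 CPM (76.7-94.1) and 23.9 CPM (19.6-28.7). Its 1.56-fold difference (1.32-1.84) from Day 3 to Day 7 was under the 2-fold limit. By Day 14, 9 of the 9 genes were called lower than on Day 3, against 7.80% of 12866 genes, with folds from 5.56 (G0s2) to 91.3 (Slpi), and Trem1 at least 121-fold lower against the floor.

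Over whole slides the fall from Day 3 was also seen, and S100a9 and Retnlg were higher again on Day 14 than on Day 7. From Day 3 to Day 7, 8 members were called lower over whole slides, against 7.30% of 13723 genes, and from Day 3 to Day 14, 9 were, against 7.57%. From Day 7 to Day 14 over whole slides, S100a9 was 2.15-fold higher (1.84-2.51) and Retnlg had 24 UMIs against 0, at least 9.35-fold higher against the floor. These 2 were the members called higher there, against 10.2% of 14376 genes, and S100a8 stayed under the limit at 1.96-fold higher (1.65-2.33). Without the Day 14 spots rich in 5 bone genes described below, S100a9 was no longer called, at a log2 ratio of 0.89 against 1.10 with them. Clec4d (4.76-fold), G0s2 (3.40-fold) and Slpi (10.2-fold) were called lower on Day 14 than on Day 7, against 7.25%. In marked spots alone, the same comparison called Clec4d, G0s2 and Slpi lower, against 8.08% of 13412 genes, and Retnlg higher, against 12.0%, the last on 9 UMIs against 0, under the minimum of 20 UMIs set for the other genes.

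**Figure D1:**
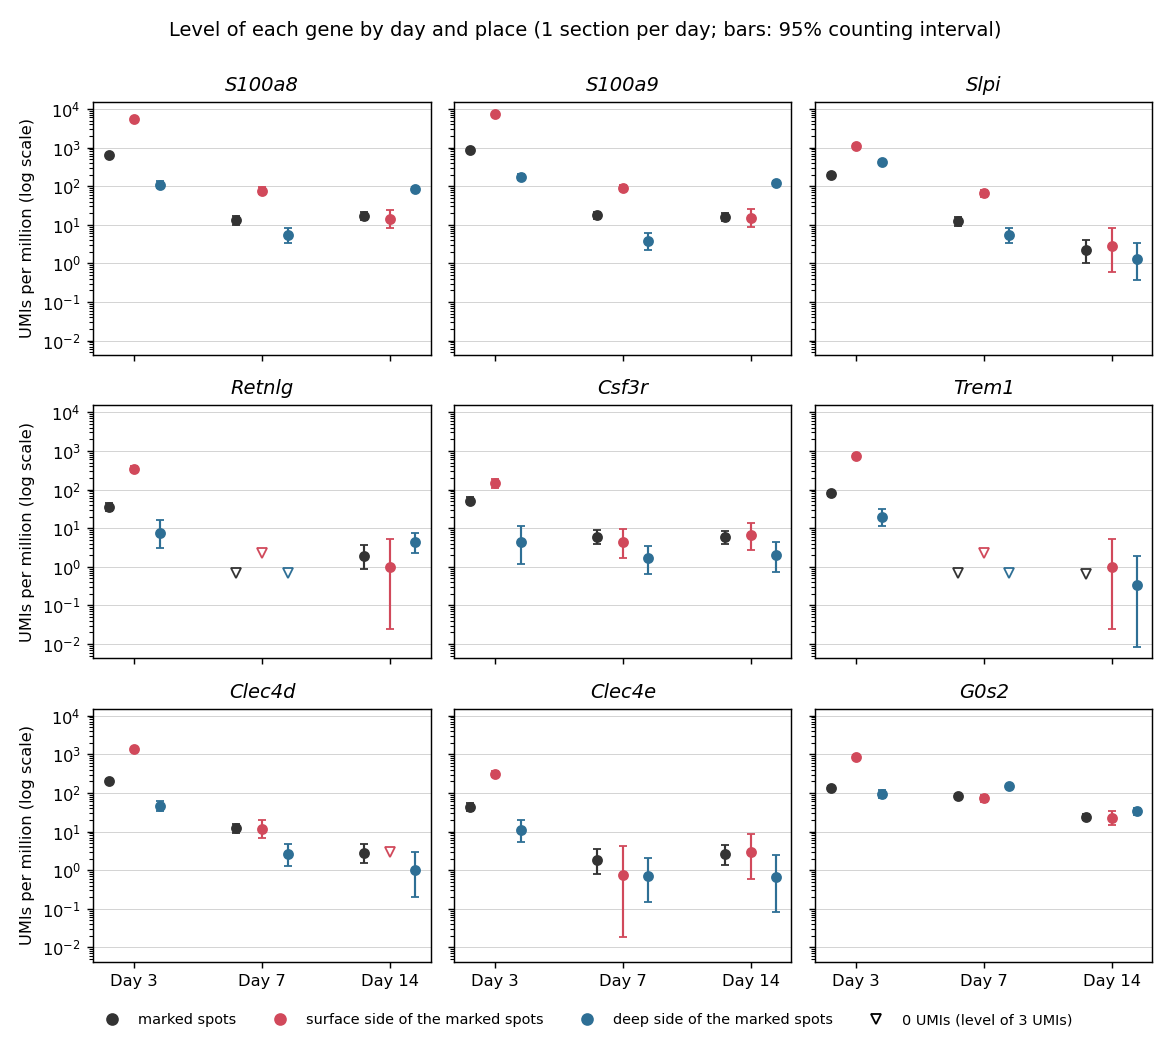
CPM of each of the 9 genes (log axis) by day in marked spots, on the surface side and on the deep side, 1 section per day, with exact 95% Poisson intervals and triangles for 0 UMIs drawn at the level of 3 UMIs. On Day 3 the surface side lies above the marked spots for every gene, and on Day 14 the deep side lies highest for S100a8 (86.3 CPM) and S100a9 (123 CPM).

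Genes that act with the members were called lower on Day 7 in marked spots in part, and each count below stands against the 7.46% of all genes called lower there. All 5 tested of 8 ligand genes that recruit or feed neutrophils (Cxcl1, Cxcl2, Cxcl3, Cxcl5 and C3) were called lower, with a median log2 ratio of -5.32 against 0.04 over all genes. Cxcl2, a chemokine that draws neutrophils, had 660 CPM before and 0.225 CPM after, and no UMI in marked spots of Day 14. Of 10 other neutrophil markers 7 were tested and 6 called lower (Cxcr2, Il1r2, Hdc, Acod1, Fpr1 and Stfa2l1). Of 10 receptors 9 were tested and 6 called lower, and of 10 partners of the alarm receptors 8 were tested and 5 called lower, among them Il1b, which went from 264 to 3.15 CPM. Tyrobp and Fcer1g, the signalling adaptors that Trem1 and Clec4e use, were not called lower, with Tyrobp at 244 and then 218 CPM and Fcer1g at 273 and then 205 CPM. Macrophages also use these adaptors, and 3 of 10 macrophage markers were called lower. The lists overlap, since Cxcr2, Il1r2 and Fpr1 stand in both the marker and the receptor list.

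The granule lists were uneven in the Day 3 counts. In marked spots Hp, the haptoglobin gene, had 257 CPM, Mmp9, a gelatinase of tertiary granules, 98.2 CPM and Lcn2, the iron-scavenging lipocalin, 23.7 CPM. Mpo and Elane, primary granule enzymes, had 0 UMIs over the whole Day 3 slide, and so did Camp, the cathelicidin of secondary granules. Ngp had 8 UMIs and Ltf 5. Of the secondary list, 3 of 8 genes could be tested from Day 3 to Day 7 and all 3 were called lower (Lcn2, Cybb and Itgam), and of the tertiary list 2 of 4 were (Hp and Arg1). The paper names Arg1 among the genes of a macrophage subcluster, and whether neutrophils alone carried these falls was not tested. None of the 5 primary granule genes reached the minimum of 20 UMIs in that comparison. On Day 14 over whole slides these genes were higher from low levels, with 3 of 3 tested primary genes (Mpo, Elane and Prtn3) and 4 of 6 tested secondary genes (Ltf, Camp, Ngp and Lcn2) called higher than on Day 7. Neither list held a gene called lower in that comparison.

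On Day 3 the 9 genes were densest above the marked area. S100a9 stood at 7413 CPM (7155-7678, 3125 UMIs) on the surface side, 858 CPM in marked spots and 175 CPM (149-204, 159 UMIs) on the deep side, and S100a8 at 5444, 622 and 109 CPM. The surface side was thus highest and the deep side lowest for both. On the surface side 9 of 9 genes were called higher than in marked spots, against 5.68% of 9996 genes, with folds from 2.83 (Csf3r, 2.02-3.95) to 9.48 (Retnlg, 7.00-13.0). S100a8 was 8.75-fold higher (8.14-9.41), and Trem1 9.34-fold higher (7.63-11.5). In spots of at least 500 UMIs on both sides, 9 of 9 were again called higher, against 6.27%, with S100a8 at 11.1-fold and Csf3r at 2.29-fold. On the deep side 7 of 9 were called lower than in marked spots, against 35.5% of 10299 genes.

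Slpi did not follow the others on the deep side of Day 3. It stood at 198 CPM in marked spots, 1124 CPM (1025-1230) on the surface side and 424 CPM (383-468) on the deep side, where it was 2.14-fold higher (1.85-2.48) than in marked spots, a call made for 6.30% of genes. On the deep side it was higher with distance from the marked area, from 50.7 CPM (18.6-110) within 2 spot pitches to 187, 524 and 782 CPM (660-921) at 2 to 5, 5 to 10 and over 10 pitches, a pitch being the distance between neighbouring spots. There were 2.43 Slpi UMIs per S100a9 UMI (2.01-2.94) on the deep side and 0.152 (0.137-0.167) on the surface side. G0s2 was neither higher nor lower by the rule there, at 94.4 CPM (75.5-117) against 133 CPM in marked spots. Over all outside spots of Day 3, 7 of 9 genes were called higher than in marked spots, against 3.42% of 10974 genes, but in spots of at least 500 UMIs, or with deep-side spots alone, only Slpi was.

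Neutrophil, macrophage and epidermal markers also differed between the surface side and marked spots on Day 3. Of the 10 neutrophil markers 7 of 8 tested were called higher there than in marked spots, summing to 2227 CPM against 467 CPM, and 7 of 10 macrophage markers were called lower, against 8.07% of all genes, at 1210 CPM against 2884 CPM. Epidermal genes were also dense there, with 10 of 10 differentiated-epidermis genes and 7 of 7 tested activated-epidermis genes called higher. Their part in the result was not tested. The 82 spots rich in Krt1 on that slide held 5.48% (5.01-5.97) of the S100a8 and S100a9 UMIs and 6.63% of all UMIs, and the spots rich in activated-epidermis genes held 19.4% (18.6-20.2) and 5.77%. A spot is called rich in a gene or list at 3 UMIs or more and a share at least 3 times that of its slide, among spots of at least 100 UMIs. The keratinocyte gene Krt1 marks differentiated epidermis.

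**Figure D2:**
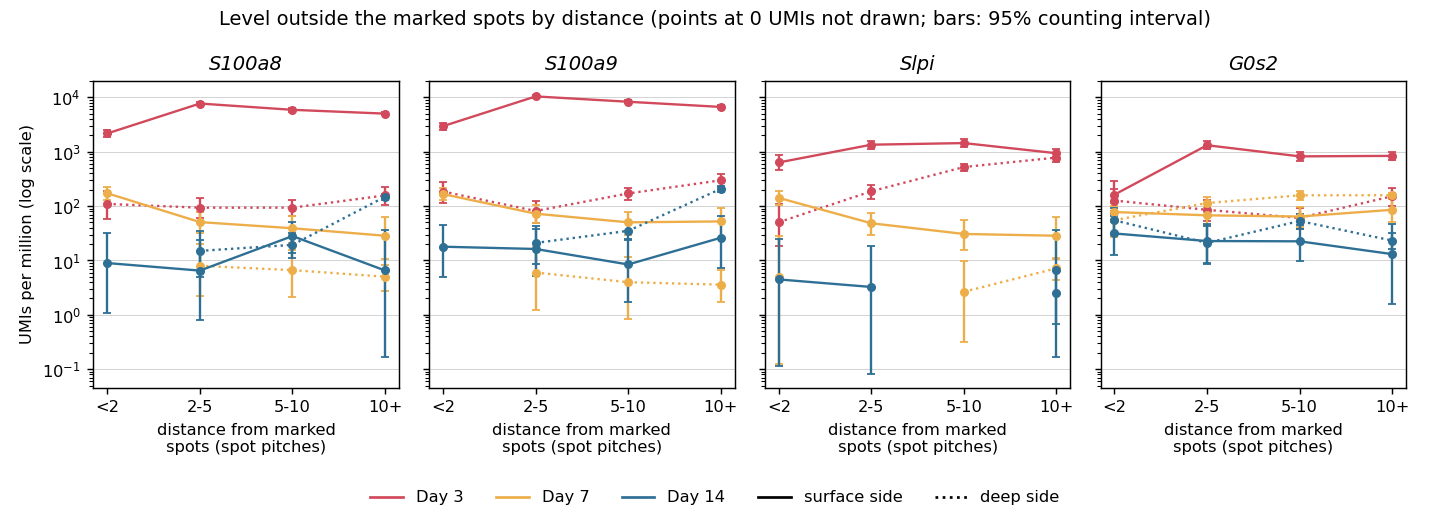
CPM of S100a8, S100a9, Slpi and G0s2 (log axis) by distance from the nearest marked spot in spot pitches, on the surface side (solid) and the deep side (dotted), for each day, with exact 95% Poisson intervals. On Day 3 the surface-side peak of S100a9 lies 2 to 5 pitches out at 10434 CPM, and Slpi climbs with distance on the deep side to 782 CPM.

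On the surface side of Day 3 the calprotectin genes peaked a short way beyond the edge. S100a9 went from 2958 CPM (2563-3398) within 2 pitches to 10434 CPM (9809-11090) at 2 to 5 pitches, 8319 CPM at 5 to 10 and 6684 CPM (6264-7126) beyond 10. S100a8 followed at 2174, 7715, 5911 and 5033 CPM. The farthest bin had a median of 45 UMIs per spot over 1931 spots, and whether RNA that spread from the section is among those UMIs was not tested. The ratio of the subunits hardly moved, with 0.725 S100a8 UMIs per S100a9 UMI (0.670-0.784) in marked spots, 0.734 (0.696-0.775) on the surface side and 0.623 (0.479-0.805) on the deep side.

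The members shared spots on Day 3. For this, each spot of at least 500 UMIs was thinned at random to 500 UMIs, which left 1194 spots on Day 3. Of 346 spots with S100a9, 173 also held S100a8, 50.0% (44.6-55.4), against 23.5% of all these spots. S100a9 was present in 79.4% (62.1-91.3) of the 34 Retnlg spots, 82.5% (67.2-92.7) of the 40 Clec4e spots and 77.1% (65.6-86.3) of the 70 Trem1 spots, against 29.0% of all spots. The share was lower for Csf3r, 53.3% (34.3-71.7) of 30 spots, and for Slpi, 52.0% (44.3-59.7) of 173. Of the Retnlg, Clec4e and Trem1 spots, 25, 20 and 39 lay on the surface side. There S100a9 was found in 72.8% (64.8-79.8) of 147 spots. Whether members shared spots beyond their common place was not tested. Spots with at least 5 of the 9 genes numbered 57, of which 50 were among the 147 surface-side spots (34.0%) and 7 among the 520 marked ones. Spots in which muscle genes made up at least 10% of the UMIs were set beside these, and 0 of 436 of them held 5 members.

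**Figure D3:**
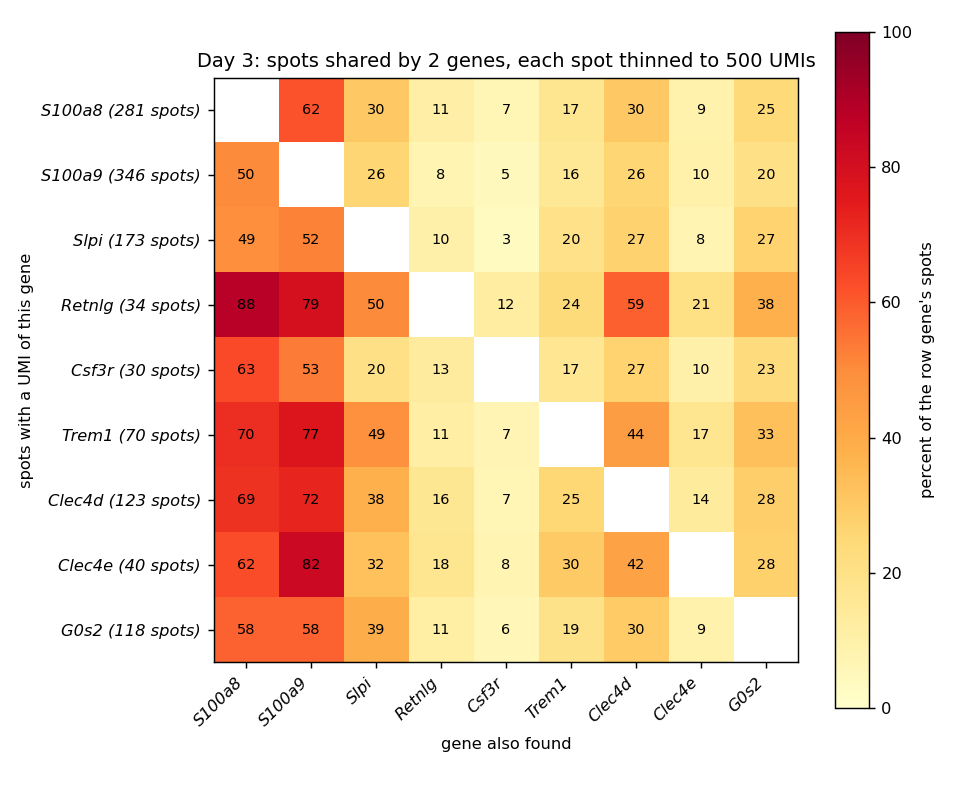
Percent of the Day 3 spots of each row gene that also held the column gene, over 1194 spots thinned to 500 UMIs. The columns of S100a9 and S100a8 are the highest, with S100a9 in 82.5% of the Clec4e spots and 52.0% of the Slpi spots.

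Detection after thinning gave the same order of places on Day 3. S100a9 was found in 72.8% (64.8-79.8) of surface-side spots, 33.1% (29.0-37.3) of marked spots and 8.49% (6.05-11.5) of muscle spots, and before thinning in 81.0%, 68.5% and 22.5%. Trem1 was found in 26.5% (19.6-34.4), 4.04% (2.52-6.11) and 0.917% (0.251-2.33). For Csf3r the intervals of the surface side and marked spots overlapped, at 6.12% (2.84-11.3) and 3.65% (2.21-5.65). Over all spots of at least 500 UMIs, whose values share 1 section and differ in depth, the 36 pairs of members had a median Pearson correlation of log UMIs per 10000 of 0.35 on Day 3, from 0.14 (Csf3r and Clec4d) to 0.67 (S100a8 and S100a9). On Day 7 the median over 21 pairs was 0.01 across 2657 spots and on Day 14 it was -0.00 over 36 pairs across 2469 spots, with the highest pairs at 0.28 (S100a9 and Slpi) and 0.47 (S100a8 and S100a9).

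The genes most like S100a9 across Day 3 spots were S100a8 (r = 0.67), Srgn (0.66), Cxcl2 (0.64), Spp1 (0.61) and Il1b (0.59), and those most like S100a8 were the same with S100a9 in its place. For Slpi they were Il1b (0.47), Cxcl2, S100a9, S100a8 and Thbs1, and for G0s2 they were S100a8 (0.43), Ccl4, Spp1, Srgn and Cxcl2. In the 481 spots of Day 3 with at least 5 UMIs of S100a8 and S100a9 together, Il1b was 3.59-fold (3.26-3.96) and Cxcl2 3.41-fold (3.19-3.64) denser than elsewhere on the slide, as was Hdc, a histamine-forming enzyme, at 3.09-fold. The keratin genes Krt6a at 2.78-fold (2.53-3.06), Krt16 at 2.26-fold (2.09-2.45) and Krt1 at 2.03-fold (1.87-2.21) were also denser in these spots. Of these spots 189 were marked, 285 lay on the surface side and 0 on the deep side. The richest held 77 S100a8, 90 S100a9, 18 Clec4d, 15 Trem1, 14 Slpi and 43 Il1b UMIs of 3339 in all, and lay 4.58 pitches above the marked area. Genes that led these spots beside the members included Timp1 (7.04-fold, 6.11-8.14), a protease inhibitor, and Cxcl5 (7.34-fold, 5.82-9.33), a neutrophil chemokine.

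**Figure D4:**
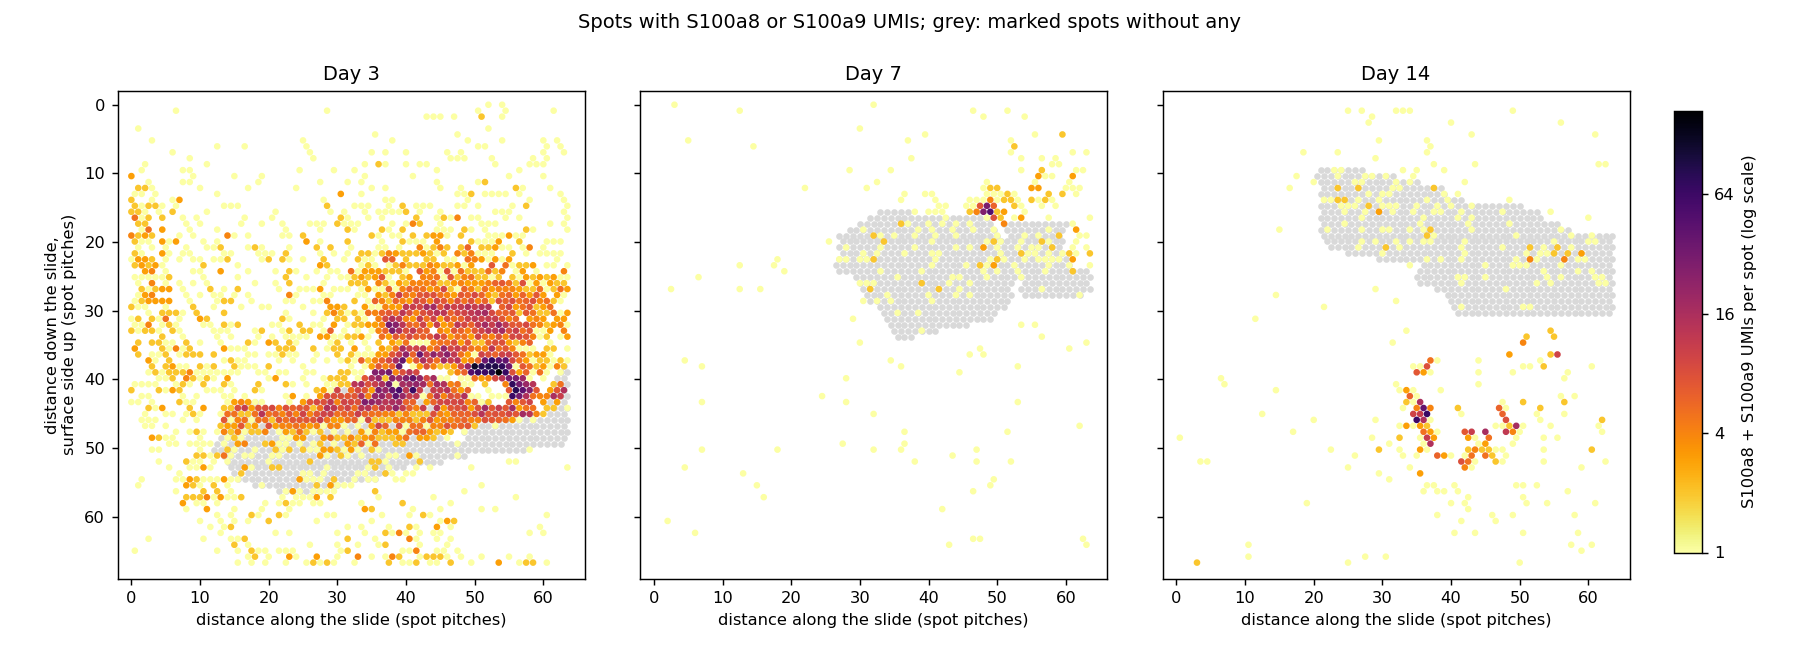
UMIs of S100a8 and S100a9 together in each spot of the 3 slides (colour on a log scale, axes in spot pitches), with the skin-surface side upward and marked spots without a UMI in grey. The richest spots hold 167, 49 and 67 UMIs in the order of the days, and the dense spots lie above the marked area on Day 3 and beyond its deep edge on Day 14.

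On Day 7 the calprotectin genes were densest in a few spots near the surface edge. Together S100a8 and S100a9 had 8891, 470 and 829 UMIs on the slides in the order of the days, and the 12 richest spots held 11.9%, 31.7% and 35.7% of them. S100a9 on Day 7 stood at 17.6 CPM in marked spots, 88.7 CPM (73.5-106) on the surface side and 3.78 CPM (2.16-6.13) on the deep side. On the surface side S100a8 was 5.78-fold (4.16-8.11), S100a9 5.05-fold (3.77-6.81) and Slpi 5.30-fold (3.74-7.57) higher than in marked spots, the 3 members called of 9, against 2.78% of 12379 genes. Of the 103 S100a8 UMIs on the surface side 32 were in 1 spot, and without the 3 spots richest in the pair the log2 ratios were 1.64 in place of 2.53 (S100a8), 1.91 in place of 2.34 (S100a9) and 1.63 in place of 2.41 (Slpi), with all 3 still called. All 3 were highest within 2 pitches of the edge, S100a8 at 172 CPM (132-221), S100a9 at 167 CPM (127-215) and Slpi at 142 CPM (106-186), against 28.5, 52.3 and 28.5 CPM beyond 10 pitches. Over all outside spots together, 0 members were called higher on Day 7 (3 with TMM and 2 with DESeq2 size factors), against 3.43%. Csf3r and Clec4d were called lower, against 9.93%. The same scalings raised the log2 ratios there by 0.38 (TMM) and 0.31 (DESeq2). Under either, both lower ratios fell short of the 2-fold limit.

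Those Day 7 spots were rich in Slpi and in genes of activated keratinocytes. Only 6 spots had at least 5 UMIs of the pair, 4 on the surface side and 2 in the gaps between marked spots. In them Slpi was 131-fold (95.5-178), Sprr2d 116-fold (90.6-148), Lce3d 164-fold (101-262), Sprr1a 78.0-fold and Krt6b 64.3-fold (52.5-78.2) denser than elsewhere. Sprr and Lce3 genes encode cornified-envelope proteins of stressed epidermis, and Krt6b a keratin of activated keratinocytes. Il1b, an inflammatory cytokine, was 32.7-fold denser (6.36-106) on 3 of its 31 UMIs, Mmp9 had 3 UMIs and Clec4d 1. Csf3r, Clec4e, Cxcr2 and Il1r2 had 0 UMIs in these 6 spots, which held only 0.326% of the slide's UMIs, and Krt1 was 2.15-fold (1.53-2.93) denser. The richest held 32 S100a8, 17 S100a9, 28 Slpi, 35 Krt6b, 31 Sprr2d and 5 Krt1 UMIs of 4328. On Day 7 the spots rich in activated-epidermis genes held 43.2% (38.7-47.8) of the pair's UMIs and 4.48% of all UMIs, and 45.3% (38.3-52.4) of those of Slpi.

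The likeness of the members changed with this move. On Day 7 the genes most like S100a9 were Lce3b (r = 0.29), Slpi (0.28), Lce3c, Klk10 and Cstdc5, and those most like S100a8 were Lce3f (0.25), Slpi, Sprr2d, S100a9 and Sprr1b. For Slpi they were Lce3f (0.28), S100a9, Sprr2e, Sprr1b and Sprr2d. These correlations are low and rest on sparse counts. Only 3 of 34 spots with S100a9 also held S100a8 after thinning, 8.82% (1.86-23.7), against 0.979% of 2657 spots. After thinning no Day 7 spot held more than 3 members.

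On Day 14 the pair was dense below the skin. S100a9 stood at 15.8 CPM in marked spots, 15.4 CPM (8.81-25.0, 16 UMIs) on the surface side and 123 CPM (110-136, 367 UMIs) on the deep side. S100a8 stood at 17.1, 14.4 (8.08-23.8) and 86.3 CPM (76.1-97.4). The deep side was thus highest for both, and marked spots and the surface side did not differ beyond their intervals. On the deep side S100a9 was 7.75-fold (6.02-10.1) and S100a8 5.04-fold (3.90-6.56) higher than in marked spots, the 2 members called higher there, against 4.32% of 12848 genes, while Csf3r was called lower, against 41.3%. Over all outside spots S100a9 was 5.28-fold (4.10-6.87) and S100a8 3.50-fold (2.72-4.56) higher, against 2.67% of 13171 genes. Clec4d was called lower there, against 15.1%, on 3 outside and 13 marked UMIs, under the minimum set for the other genes. Within 5 pitches of the marked area neither S100a8 nor S100a9 was higher.

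Pooled over the Day 14 spots dense in the pair, genes of bone matrix, neutrophil granules and red cells were dense. At least 5 UMIs of the pair were found in 29 spots, all on the deep side between 6.08 and 21.7 pitches from the marked area. Of these spots 8 were rich in bone genes and 19 in red-cell genes, with 5 in both and 7 in neither. In the 29 together Ibsp, a bone matrix protein gene, was 34.3-fold (30.1-39.0) denser than elsewhere on the slide and Bglap, which encodes osteocalcin, 34.8-fold (28.7-42.1). The secondary granule genes Ngp at 27.3-fold (18.9-39.1), Ltf at 27.2-fold (15.5-46.8) and Camp at 14.5-fold (10.2-20.2) were dense in the same spots, as were Mpo at 17.5-fold (6.17-43.8), on 7 UMIs, and the haemoglobin gene Hba-a1 at 5.75-fold (5.39-6.13). Other neutrophil genes were not dense there. Elane, on 2 UMIs, was at 4.73-fold with an interval that included no change (0.534-19.6). Il1r2 had 1 UMI, at 0.158-fold (0.00399-0.888), and Cxcr2, Hdc, Ly6g, Trem1 and Clec4d had 0. The Day 3 slide held 0 Ibsp UMIs, that of Day 7 had 23 and that of Day 14 had 973. Of the 24 Retnlg UMIs of Day 14, 10 were in these spots, 32.1-fold denser (12.8-77.7), whereas G0s2 had 1 of 296 there and Cxcl2 had none on the slide. The bone genes were picked after their values were seen.

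**Figure D5:**
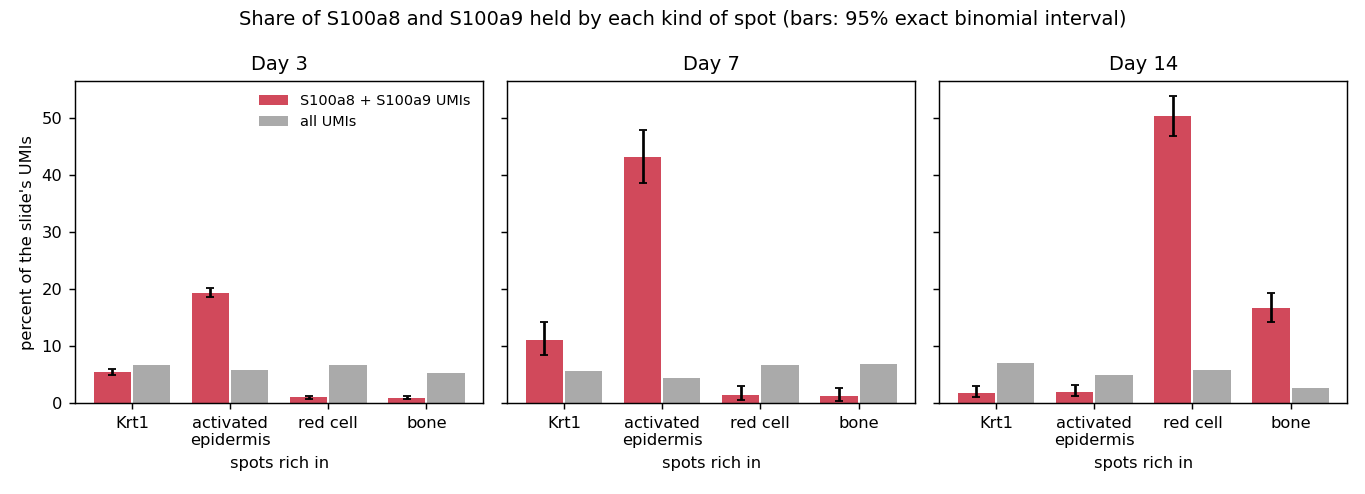
Percent of the S100a8 and S100a9 UMIs of each day (bars, exact 95% binomial intervals) beside the percent of all UMIs in spots rich in Krt1, activated-epidermis genes, red-cell genes and bone genes. The largest share is 43.2% in activated-epidermis spots on Day 7 and 50.3% in red-cell spots on Day 14. A spot can belong to several kinds. On Day 3 and Day 7 the bone list counted almost only Acp5.

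Spots rich in red-cell genes held more of the pair than spots rich in bone genes. On Day 14 the spots rich in haemoglobin and other red-cell genes held 50.3% (46.8-53.8) of the pair's UMIs and 5.89% of all UMIs, and the spots rich in bone genes 16.6% (14.2-19.4) and 2.70%. These kinds of spot overlapped. Of the 138 pair UMIs in bone-rich spots, 108 lay in 10 spots that were also rich in red-cell genes. Those 10 spots held 13.0% (10.8-15.5) of the pair's UMIs and 0.541% of all UMIs. On Day 3 red-cell spots held 1.02% (0.825-1.26) of the pair's UMIs and 6.72% of all UMIs. The richest Day 14 spot held 36 S100a8, 31 S100a9, 11 Camp, 220 Hba-a1 and 2 Krt1 UMIs of 10610, and the next held 27 S100a8, 37 S100a9, 13 Ngp and 7 Ltf. The genes most like S100a9 across 2469 spots were S100a8 (r = 0.47), Ngp (0.35), Camp (0.34), Hbb-bt (0.24) and Hba-a2 (0.24), and those most like S100a8 were S100a9, Ngp, Camp, Hbb-bt and Hba-a2. Of 46 spots with S100a9, 14 also held S100a8, 30.4% (17.7-45.8), against 1.66% of all. After thinning S100a9 was found in 3.97% (2.81-5.42) of deep-side spots, 0.871% (0.320-1.89) of marked spots and 3.11% (2.12-4.38) of muscle spots. The intervals of the deep side and of the muscle spots thus overlapped on that day. Muscle genes summed to 151576 CPM on the Day 14 deep side, so these 2 groups share spots and the muscle spots are no separate background.

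The Krt1-rich epidermis of Day 14 held few UMIs of the members. In the marked area 43 spots were rich in Krt1 and held 10.9% of the UMIs. They held 7 of 79 S100a8 UMIs, 8.86% (3.64-17.4), and 6 of 73 S100a9 UMIs, 8.22% (3.08-17.0), with 9 of 110 for G0s2, 2 of 27 for Csf3r, 1 of 12 for Clec4e and 1 of 10 for Slpi. Clec4d had 0 of 13 and Retnlg 0 of 9 UMIs there, and Trem1 had none in the marked area. The 10.9% of all UMIs lay within the interval of each of the 8 shares, and 0 of 9 members were called higher in Krt1-rich spots than in other marked spots, against 4.78% of 12229 genes. Only 4 of the 9 passed the minimum of 20 UMIs there, so a count of 0 is near the background share and is not a result about the members. Outside the mark 84 spots were rich in Krt1, with 3.27% of the UMIs. They held 1 of 283 S100a8, 1 of 394 S100a9 and 1 of 186 G0s2 UMIs, and these 3 members were called lower there, against 3.07% of 11551 genes, with folds of 9.52 (1.70-377), 13.3 (2.37-526) and 6.25 (1.11-248). No member was called higher, against 12.9%. The deep side held 258 of the 283 S100a8, 367 of the 394 S100a9 and 101 of the 186 G0s2 UMIs outside the mark. The Krt1 shares of the spots nearest the limit were 3.02 times that of the slide just inside and 3.00 times just outside.

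The same split was made on the earlier days. On Day 7 the Krt1-rich spots outside the mark held 30 of 176 S100a9 UMIs, 17.0% (11.8-23.4), and 7.07% of all UMIs, a 2.72-fold higher density (1.77-4.05), against 13.5% of genes called higher. It was the 1 member of 9 called, with 5 past the minimum of 20 UMIs, a share near that background. S100a8 had 17 of 157 UMIs there, 10.8% (6.44-16.8), an interval that includes the share of all UMIs. The Krt1-rich spots of Day 3 held 5.71% (5.09-6.38) of S100a9 UMIs and 5.15% (4.47-5.91) of S100a8 UMIs over the slide, under the 6.63% of all UMIs.

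G0s2 took another path on the later days. On Day 7 it stood at 85.1 CPM in marked spots, 72.3 CPM (58.6-88.2) on the surface side and 148 CPM (137-160) on the deep side, and its genes of closest pattern were Cidec (r = 0.22), Adipoq, Fasn, Fabp4 and Apoc1, all but the last genes of fat storage or fat cells. Of 35 spots with at least 5 G0s2 UMIs, 32 lay on the deep side, and Ucp1, the heat-producing protein of brown fat, led them at 12.7-fold (11.7-13.7) over elsewhere, with Cidea at 10.6-fold and Thrsp at 9.03-fold. Spots rich in fat genes held 33.3% (30.6-36.1) of G0s2 UMIs and 9.62% of all UMIs on Day 7, 33.4% (28.1-39.1) and 4.52% on Day 14, and 9.91% (7.84-12.3) and 8.13% on Day 3. The Day 7 spots rich in the sebaceous-gland list, which also holds lipid genes, held 32.2% (29.6-35.0) of G0s2 UMIs and 9.80% of all UMIs. Those rich in the bone list held 24.1% (21.7-26.7) and 6.95%. That list counted almost only Acp5 on Day 7. Outside the 6 Day 7 spots dense in the pair, Acp5 had 1174 UMIs, Ibsp 23, Dmp1 2 and Bglap 0. The Day 7 spots rich in the list were thus rich in Acp5 and were not shown to be bone. The 17 spots of Day 3 with at least 5 G0s2 UMIs lay mostly on the surface side (12), and Ccl4, Cxcl2, Clec4d and Trem1 were among their leading genes. On Day 14 the genes most like it were Cdo1 (0.21), Cyp2e1, Cidec, Pck1 and Cfd.

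Slpi too had a second place. On Day 3, 57 spots had at least 5 Slpi UMIs, 11 marked, 18 on the surface side and 28 on the deep side. In the 28 deep spots Gpm6a (24.8-fold, 10.3-68.9), Upk3b (17.7-fold, 10.4-31.2) and Msln (14.3-fold) were dense against the rest of the deep side. Upk3b and Msln are genes known from mesothelium, the lining of body cavities. Fmo2 (13.8-fold) and the haemoglobin genes Hbb-bt (5.85-fold) and Hbb-bs (4.68-fold) were dense there too. Over the Day 3 slide, spots rich in red-cell genes held 13.9% (12.0-15.9) of Slpi UMIs and 6.72% of all UMIs. In the 18 surface spots Ccl4 was 4.04-fold and Cxcl2 3.65-fold denser. On Day 14 Slpi had 17 UMIs on the whole slide and no spot with 5, so its 5 most like genes (Mettl5, Nuf2, Cd38, Pigyl and Prkcb, r up to 0.18) rest on those 17 UMIs.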

How the data were processed

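The deposited data are raw UMI counts per gene and spot of 3 Visium slides, 1 per day, which the authors made with Space Ranger 1.3.0 on build mm10, per the submitters' processing notes, without normalization or pooling. Groups were taken from the day in the labels. Deposited position lists gave each spot's place and whether it was marked as tissue. The 9 genes and all gene lists were chosen with earlier results of these data known, so no list is independent support. UMIs were summed over spots and divided by those of all genes (CPM). Depth was 1772259 to 4611723 UMIs in the marked spots of a slide. Intervals were exact Poisson for CPM, exact binomial (Clopper-Pearson) for shares and exact conditional binomial for ratios, all at 95% and for counting error only. A call needed a 2-fold ratio and an interval excluding no change, and other genes needed 20 UMIs over both sides. Folds against 0 UMIs used a floor of 3 UMIs per side. Spots were thinned to 500 UMIs without replacement (seed 1) for sharing and detection. Spots can hold several cells, so no cell types were assigned, and no doublet caller was run. All 9 genes were named, with the 5 genes most correlated with S100a8, S100a9, Slpi and G0s2 per day among genes of at least 100 UMIs, over spots of at least 500 UMIs, and of each gene list its counts and at most 3 genes with the most UMIs on Day 3. Beyond this rule, further called genes of the lists, genes dense in groups of spots and the bone genes were named after their values were seen. Epidermal, fat, red-cell, muscle and macrophage lists were used to describe places. Alternatives were TMM factors (edgeR 4.0.16) and DESeq2 1.42.0 size factors, the mean of spot CPM, other call limits, gene minimums and denominators, spots of at least 500 UMIs, outside spots by distance or side, and other thinning depths. Promoters and gene positions came from RefSeq's GRCm38.p6. Calculations used Python 3.11.15, numpy 2.4.6, scipy 1.17.1, pandas 2.3.3, matplotlib 3.10.9 and R 4.3.3, and the interval and call scripts were tested on simulated counts.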

Additional observations from a re-analysis of the deposited data

Results flagged for a closer look

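Clec4d was the member whose difference between outside and marked spots changed direction with the day and, by CPM, had an interval that excluded no change on each day. The log2 ratio of its CPM outside over that in marked spots was 0.94 (0.76 to 1.13) on Day 3, -1.23 (-1.89 to -0.59) on Day 7 and -2.15 (-4.60 to -0.28) on Day 14. It rests on 366 marked and 676 outside UMIs on Day 3, 55 and 34 on Day 7, and 13 and 3 on Day 14. The Day 14 counts are under the minimum set for the other genes. Outside spots pool the surface and deep sides, which differed. On Day 3 Clec4d stood at 1362 CPM on the surface side, 207 CPM in marked spots and 47.2 CPM on the deep side. On Day 7 it stood at 11.9, 12.4 and 2.60 CPM in the same order. The deep side was thus below marked spots on both of these days. On Day 14, TMM raised the log2 ratios of outside over marked spots by 0.45 and DESeq2 size factors by 0.44. Both shifts exceed the distance of the upper end, -0.28, from no change, so under either scaling the Day 14 interval includes no change. The Day 3 and Day 7 intervals exclude it under both scalings. The difference between the days was not tested, since each day had 1 section. Clec4e and Slpi also changed direction, but with intervals on the later days named here that included no change, Clec4e outside being 1.94-fold lower (0.59-6.78) on Day 7 and 1.75-fold lower (0.636-5.25) on Day 14 and Slpi 1.46-fold lower (0.502-4.52) on Day 14.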

How the results depend on the processing

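No leave-one-out or paired analysis was possible because each day had 1 section. Of 192 counts and shares recomputed under the alternatives, 171 stayed within the limits set for a change and 21 moved. Of 917 ratios of single members 779 stayed, 127 moved and 11 changed direction. No count of members lower on a later day moved by over 1.5 times, and without the 3 richest Day 7 spots 8 members stayed lower from Day 3 to Day 7. The 2 members higher on Day 14 than on Day 7 over whole slides became 4 with the mean of spot CPM, called by fold alone, 1 at a 3-fold limit and 1 without the bone-rich spots. The counts outside against marked spots depended most on which outside spots were taken. On Day 3 the 7 members called higher became 1 in spots of at least 500 UMIs, 0 at a 3-fold limit, 4 within 5 pitches and 1 on the deep side alone, where the log2 ratios were -2.52 (S100a8), -2.30 (S100a9), -2.21 (Retnlg), -2.0 (Trem1), -1.98 (Clec4e) and -0.49 (G0s2). On Day 7 the count of 0 became 3 with TMM, 2 with DESeq2 size factors, 3 at a 1.5-fold limit, 3 within 5 pitches (Csf3r then at a log2 ratio of 0.15) and 3 on the surface side alone. On Day 14 the count of 2 became 0 within 5 pitches, with log2 ratios of -0.66 (S100a8) and -0.36 (S100a9), and 0 on the surface side, with -0.25 and -0.039. TMM moved the median log2 ratio of all genes outside over marked spots by 0.38, 0.38 and 0.45 in the order of the days. In Krt1-rich spots outside the mark on Day 14, the mean of spot CPM, called by fold alone, gave 1 member higher (Csf3r). The Day 3 share of S100a9 spots with S100a8 was 55.6% thinned to 200 UMIs, 64.2% unthinned, 43.6% in marked and 56.3% in outside spots, and the Day 14 share was 12.2% thinned to 200 UMIs and 0 (0 of 6) in marked spots. Among all Day 3 spots thinned to 500 UMIs, S100a8 was in 28.7% of marked and 19.6% of outside spots. The surface-side and deep-side splits, the muscle-spot comparison, the spots of at least 5 UMIs, and leaving out the 3 richest Day 7 spots or the bone-rich Day 14 spots, and recomputing the Day 7 surface-side count and the Day 14 count of higher members were chosen after seeing the data. Depth limits Retnlg, Trem1 and Clec4e most, each under 25 UMIs on the Day 7 and Day 14 slides. The causes of these changes were not tested.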
